A study of Mus musculus with 4 samples.

Results

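The genes described here encode the vacuolar proton pump (V-ATPase) of mouse macrophages sorted from fat. They were chosen by name: all gene symbols that start with Atp6v0 or Atp6v1, plus Atp6ap1 and Atp6ap2, with at least 10 CPM (a gene's UMIs scaled to the library's total; a UMI, or unique molecular identifier, marks 1 captured RNA molecule) in the pooled cells of at least 1 library. Of 25 symbols that fit the name, 17 reached that level, out of 32285 genes measured. Of these 17, 7 encode parts of the membrane sector V0, 8 parts of the cytosolic sector V1 and 2 accessory proteins. In the lists used here 16 of them count as constitutive, made in most tissues, and Atp6v0d2 alone as tissue-specific.

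Single cells came from perigonadal white fat (gWAT) as live CD45+ Lin- CD11b+ CD64+ macrophages of mice and were profiled with a droplet-based 3′ assay. There were 4 libraries, made from WT (control) mice and from mice with a BLIMP1 conditional knockout (CKO), and each genotype was fed normally or with high fat (HFD). Where 4 values follow each other, HFD comes first (WT, CKO) and the normal diet second (WT, CKO). Each group was 1 library, so no difference below has a replicate check, no p-value is given, and every 95% interval covers counting error only. The sources used here name neither the driver of the knockout nor the age of the mice or how many animals a library pooled.

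The V-ATPase is a rotary machine that uses ATP to push protons across membranes. The A and B subunits of V1, of which A is catalytic, turn a central stalk of D, F and d. The stalk spins the ring of c-type subunits past the a subunit of V0, where protons cross. In macrophages the pump acidifies lysosomes and phagosomes, where cathepsins and lipases digest engulfed material, and its V0 and V1 sectors can come apart and join again. Several subunits have alternative genes; those for a4, d2, B1, C2, G2 and G3 are used in particular tissues such as kidney, bone or brain, and Atp6v0d2 is best known from osteoclasts and macrophages.

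After filtering, 3705 to 8731 cells per library and 21788293 to 74442649 UMIs remained. The WT HFD library stood apart in depth, with a median of 14492.5 UMIs per cell against 3923 to 4092 in the other 3, and lost 400 cells to the limit on mitochondrial UMIs against 7 to 23. CKO HFD was the lowest library for the 4 RNAs listed here as marks of RNA quality: Malat1 was at 4821, 3089, 6465 and 4938 CPM, Neat1 at 503, 86.6, 426 and 495 CPM, Gm42418 at 44587, 6907, 29966 and 35304 CPM and Cmss1 at 3591, 331, 882 and 835 CPM. Their part in the low CKO HFD values of some pump genes was not tested, beyond leaving Gm42418 and mitochondrial genes out of the totals. With that, 0 higher and 4 lower calls were again made between CKO and WT on HFD, beside 4.08% and 24.8% of all genes. Libraries shared 2 to 9 cell barcodes per pair. Prdm1, which encodes BLIMP1, stood at 21.9, 22.9, 22.9 and 28.4 CPM. The 3′ tags need not lie in the deleted part of that gene, which the labels do not name, so its level does not check the genotype. All 8 macrophage markers tested were at 10 CPM or more in every library, and all 8 lymphoid markers were below it. The 7 fibroblast markers summed to 419, 170, 36.3 and 35.6 CPM.

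Promoter windows are shown because TFEB and its relatives, which switch on lysosomal genes, read the E-box motif CACGTG. RefSeq promoters (GRCm38.p6, 250 bases before to 50 after the start) were found for 11 of the 17 genes, in 13 windows. Atp6v0d2 was among the genes without one. CACGTG, searched on both strands, lay in 4 of the 13 windows, those of Atp6v0b, Atp6v0d1, Atp6v0e and Atp6v1a. That is 30.8%, against 7.15% of all 32851 promoter windows and 10.8% of those of genes at 10 CPM. The longer GTCACGTG, which contains CACGTG, lay in 2 of the 13 windows (Atp6v0b and Atp6v0d1). That is 15.4%, against 2.25% of all windows and 4.67% of those of genes at 10 CPM. An AP-1 motif, TGANTCA, lay in 1 of the 13 windows (Atp6v0a1), or 7.69%, against 7.81% of all and 5.18% of those of genes at 10 CPM. The stretches from 100 bases before the start to its first 30 transcribed bases are printed for the 3 genes whose motif lay in that stretch, with the motif in capitals.
Atp6v0b (chr4:117887300-117887429, minus strand): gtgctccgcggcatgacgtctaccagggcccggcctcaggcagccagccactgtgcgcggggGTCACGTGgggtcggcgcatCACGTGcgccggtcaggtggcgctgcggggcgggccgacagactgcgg
Atp6v0d1 (chr8:105566035-105566164, minus strand): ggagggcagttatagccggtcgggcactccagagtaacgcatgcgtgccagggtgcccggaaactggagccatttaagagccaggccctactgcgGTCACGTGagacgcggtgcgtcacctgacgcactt
Atp6v0e (chr17:26676296-26676425, plus strand): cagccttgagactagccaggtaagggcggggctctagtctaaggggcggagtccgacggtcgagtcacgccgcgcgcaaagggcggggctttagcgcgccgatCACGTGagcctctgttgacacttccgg
Counted with the start base as 0, the motif began at -36 and -18 in Atp6v0b, at -3 in Atp6v0d1 and at 3 in Atp6v0e; in Atp6v1a it began at -131. A match describes letters only. Between CKO and WT on HFD, the log2 ratios of the 4 genes with CACGTG were 0.19 (Atp6v0b), -0.22 (Atp6v0d1), 0.31 (Atp6v0e) and -0.77 (Atp6v1a). The part of the motif in these levels was not tested.

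The pump genes together took 3534, 3497, 2854 and 2784 CPM. Both HFD libraries thus lay above both normal-diet libraries, and the genotypes lay close together within a diet. V0 genes summed to 1965, 1977, 1376 and 1341 CPM, and V1 genes to 1318, 1293, 1196 and 1154 CPM. Most of the gap between diets was therefore in V0, and mainly in Atp6v0c, which encodes the c subunit of the proteolipid ring.

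**Figure D1:**
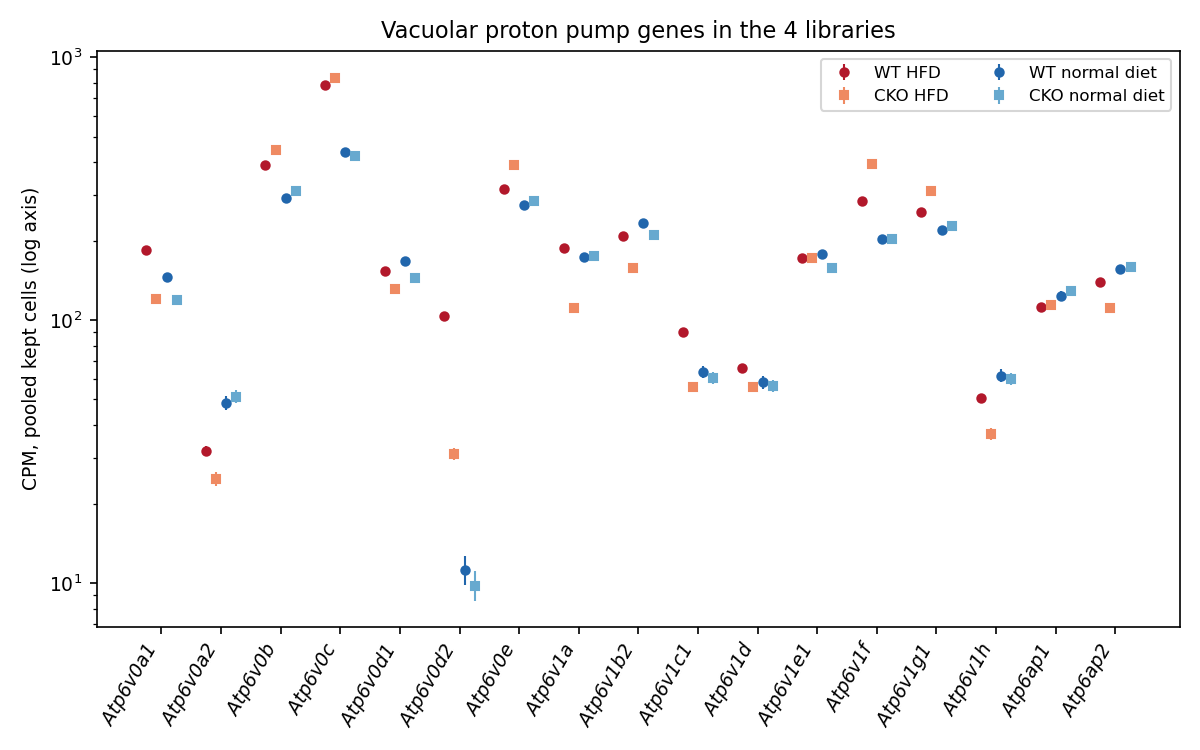
CPM of the 17 pump genes in each of the 4 libraries (log axis), with 95% counting intervals, which are mostly smaller than the symbols. Atp6v0c was the highest in each library, and Atp6v0d2 ranged from 9.79 to 104 CPM, the widest range of the 17.

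The proteolipid ring genes gave the most UMIs. Atp6v0c stood at 788, 834, 435 and 423 CPM, and Atp6v0b, the c'' subunit of the ring, at 388, 444, 292 and 309 CPM. Atp6v0e, a small V0 subunit, stood at 315, 391, 275 and 284 CPM. In all 3 genes both HFD libraries were above both normal-diet libraries and CKO HFD was the highest. Levels are UMIs not scaled by gene length, and capture can differ between genes, so levels of different genes are compared here only roughly. The annotation also lists 2 pseudogenes of Atp6v0c, and the sources used here do not say how reads shared with such copies were assigned.

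The a subunits hold the proton channels and anchor V0, and they set which membrane the pump goes to. Atp6v0a1 stood at 184, 121, 147 and 119 CPM, with WT above CKO on both diets. Atp6v0a2 stood at 31.9, 24.9, 48.6 and 51.2 CPM, with both HFD libraries below both normal-diet libraries. Tcirg1, the a3 subunit of lysosomes and osteoclasts, is named outside the rule; it stood at 67.6, 70.8, 65.5 and 54.2 CPM. Among the UMIs of the a family, Atp6v0a1 held 65.0%, 55.8%, 56.2% and 53.1%, and Tcirg1 held 23.8%, 32.7%, 25.1% and 24.1%. The Tcirg1 share was thus highest in CKO HFD, with a 95% interval of 31.8% to 33.7% that did not overlap those of the other 3.

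In V1, the catalytic Atp6v1a (A) stood at 189, 111, 174 and 176 CPM. CKO HFD was the low library, and the other 3 lay close together. Its partner Atp6v1b2 (B2) stood at 209, 158, 235 and 211 CPM, again lowest in CKO HFD. Atp6v1c1, the C subunit that clamps V1 to V0, stood at 90.4, 55.9, 63.8 and 60.5 CPM, with WT HFD the high library. Atp6v1h, the H subunit, which holds back ATP use by free V1, stood at 50.9, 37.0, 61.6 and 59.6 CPM.

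Among the stalk subunits, F and G1 were highest in CKO HFD, while E1 and D were not. Atp6v1f (F, in the central stalk) stood at 283, 393, 204 and 205 CPM, and Atp6v1g1 (G1, in the peripheral stalks) at 257, 310, 220 and 228 CPM. Atp6v1e1 (E1, which pairs with G) stood at 172 to 179 CPM in 3 libraries and at 159 in CKO normal diet, and Atp6v1d (D, in the central stalk) at 66.0, 55.6, 58.2 and 56.4 CPM, lowest in CKO HFD. The accessory Atp6ap1, needed for pump assembly, stood at 113 to 130 CPM, and Atp6ap2, the (pro)renin receptor, at 139, 112, 157 and 159 CPM.

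The other 8 symbols stayed below the level for members, and tissue-specific genes among them were nearly absent. By its highest library, the member nearest to that level was Atp6v0a2 at 51.2 CPM, and the nearest below it was Atp6v1g2 at 2.49 CPM. Atp6v1b1, the kidney B subunit, and Atp6v1e2, the testis E subunit, had 0 UMIs in every library, which allows at most 0.0193% of B and 0.0234% of E UMIs in WT HFD. Atp6v0a4, Atp6v0e2, Atp6v1c2, Atp6v1g3 and Atp6v1fnb (a neighbouring gene that is no subunit) lay between 0 and 0.259 CPM. Only Atp6v1g2, the G subunit of neurons, was above 1 CPM, at 2.10, 1.57, 1.97 and 2.49 CPM, or 0.506% to 1.08% of G-family UMIs. It overlaps Nfkbil1 on the other strand.

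Atp6v0d2 (chr4:19876841-19922605, minus strand, GRCm38) was the exception among tissue-specific subunits. On HFD its level was 104 CPM in WT (95% interval 102 to 106) and 31.1 CPM in CKO (29.4 to 32.8). With the normal diet it was 11.2 CPM in WT (9.84 to 12.7) and 9.79 CPM in CKO (8.59 to 11.1). WT HFD was far above the other 3, CKO HFD came next, and the intervals of the normal-diet libraries overlapped. Its constitutive paralog Atp6v0d1, for the same position in V0, stood at 154, 132, 168 and 145 CPM and did not follow that order. Atp6v0d2 therefore made up 40.4%, 19.1%, 6.25% and 6.33% of all d-subunit UMIs.

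The members were next compared between libraries by the ratio of CPM, and a ratio over 1.5 in either direction was counted as past the fold. The 4 comparisons share libraries, so they are not independent of each other. Between CKO and WT on HFD, 0 of 17 pump genes were over 1.5 times higher and 4 were over 1.5 times lower, beside 5.38% and 20.7% of 7864 genes. Those 4 were Atp6v0d2 at 0.299 (0.282 to 0.317), Atp6v1a at 0.588 (0.569 to 0.608), Atp6v1c1 at 0.619 (0.590 to 0.648) and Atp6v0a1 at 0.654 (0.634 to 0.676). The median of the 17 was -0.25 on the log2 scale and that of all genes -0.22, so the pump genes as a group sat where genes in general sat. The highest ratios were those of Atp6v1f at 1.39 (1.36 to 1.42) and Atp6v0e at 1.24 (1.22 to 1.27).

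The median of all genes was off 0 here because totals were used for scaling. With TMM scaling, which is built on the bulk of genes, the median of all genes moved from -0.22 to 0.00 in this comparison, from -0.18 to 0.10 for HFD over normal diet in WT and from -0.44 to 0.09 in CKO. With it, 1 pump gene was past the fold upward and 1 downward between CKO and WT on HFD (Atp6v1f at 1.61 and Atp6v0d2). Of all genes, 10.2% were past it upward and 10.3% downward with that scaling. The calls on Atp6v1a at 0.681, Atp6v1c1 at 0.716 and Atp6v0a1 at 0.757 thus ended.

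On the normal diet, 0 of 17 pump genes were over 1.5 times higher and 0 over 1.5 times lower between CKO and WT, beside 0.493% and 0.592% of 8111 genes. The ratios ran from 0.814 (Atp6v0a1, 0.774 to 0.856) to 1.06 (Atp6v0b, 1.02 to 1.09). Atp6v0d2 had a ratio of 0.874 (0.728 to 1.05), an interval that includes 1. Genes in general also differed little between these libraries.

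Between HFD and normal diet in WT, 2 pump genes were over 1.5 times higher and 1 over 1.5 times lower, beside 13.2% and 24.6% of 8342 genes. Atp6v0d2 had a ratio of 9.28 (8.17 to 10.6) and Atp6v0c of 1.81 (1.77 to 1.85), while Atp6v0a2 had 0.656 (0.610 to 0.706). In CKO, 3 were over 1.5 times higher and 3 over 1.5 times lower, beside 11.8% and 42.6% of 8235 genes. The higher ones were Atp6v0d2 at 3.18 (2.77 to 3.66), Atp6v0c at 1.97 (1.93 to 2.02) and Atp6v1f at 1.92 (1.86 to 1.98). The lower ones were Atp6v0a2 at 0.486 (0.447 to 0.528), Atp6v1h at 0.620 (0.577 to 0.666) and Atp6v1a at 0.631 (0.605 to 0.657).

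Set against genes in general, the pump genes lay high in both diet comparisons: 15 of 17 were above the median of all genes in WT and 13 of 17 in CKO. Their own median was 0.18 against -0.18 for all genes in WT, and -0.02 against -0.44 in CKO, all on the log2 scale. With TMM scaling, 6 pump genes were over 1.5 times higher and 0 lower in WT, beside 23.2% and 13.1% of all genes. In CKO 7 were higher and 0 lower, beside 27.2% and 20.3%. The lower calls on Atp6v0a2, Atp6v1a and Atp6v1h thus depend on the scaling, while the calls on Atp6v0d2 and Atp6v0c do not.

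**Figure D2:**
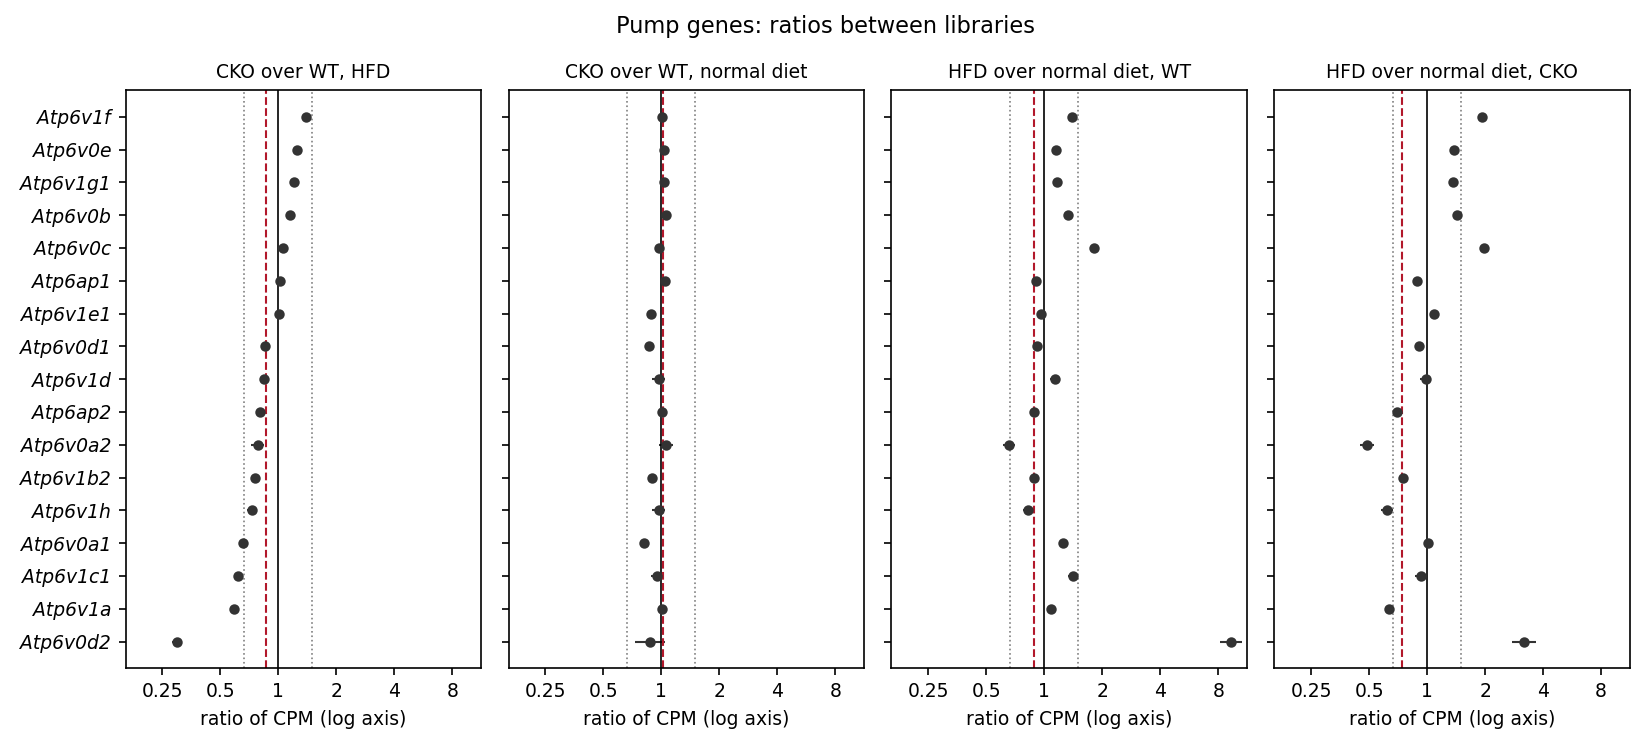
Ratio of CPM of each pump gene in the 4 comparisons (log axis), with 95% counting intervals; the dashed line is the median of all genes, the dotted lines the 1.5-fold limits. Atp6v0d2 is at the left end between CKO and WT on HFD (0.299) and at the right end in both diet comparisons (9.28 and 3.18), and the normal-diet panel holds no gene past a limit.

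Ratios in these libraries also varied with the length of the gene in the genome. Between CKO and WT on HFD, the log2 ratios of all genes were summarised by their median in 5 equal groups by span, and the medians ran from 0.12 in the shortest (median 4.74 kb) through -0.09, -0.20 and -0.33 to -0.66 in the longest (123 kb). The 5 pump genes in the shortest group (Atp6v1f, Atp6v0b, Atp6v0c, Atp6v1g1 and Atp6ap1) had ratios of 1.02 to 1.39, and the 12 longer ones had ratios below 1 except Atp6v0e and Atp6v1e1. Relative to genes of like span, Atp6v0d2 stood at 0.376, Atp6v1c1 at 0.708, Atp6v1a at 0.740 and Atp6v0a1 at 0.824, so only the Atp6v0d2 call held. Atp6v0e, which spans 36.4 kb, stood at 1.56 on that scale. For HFD over normal diet in CKO, the same scale put Atp6v0a2 at 1.11, Atp6v1a at 1.01 and Atp6v1h at 1.42, which turns their direction. The part of gene span in these results was not tested.

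**Figure D3:**
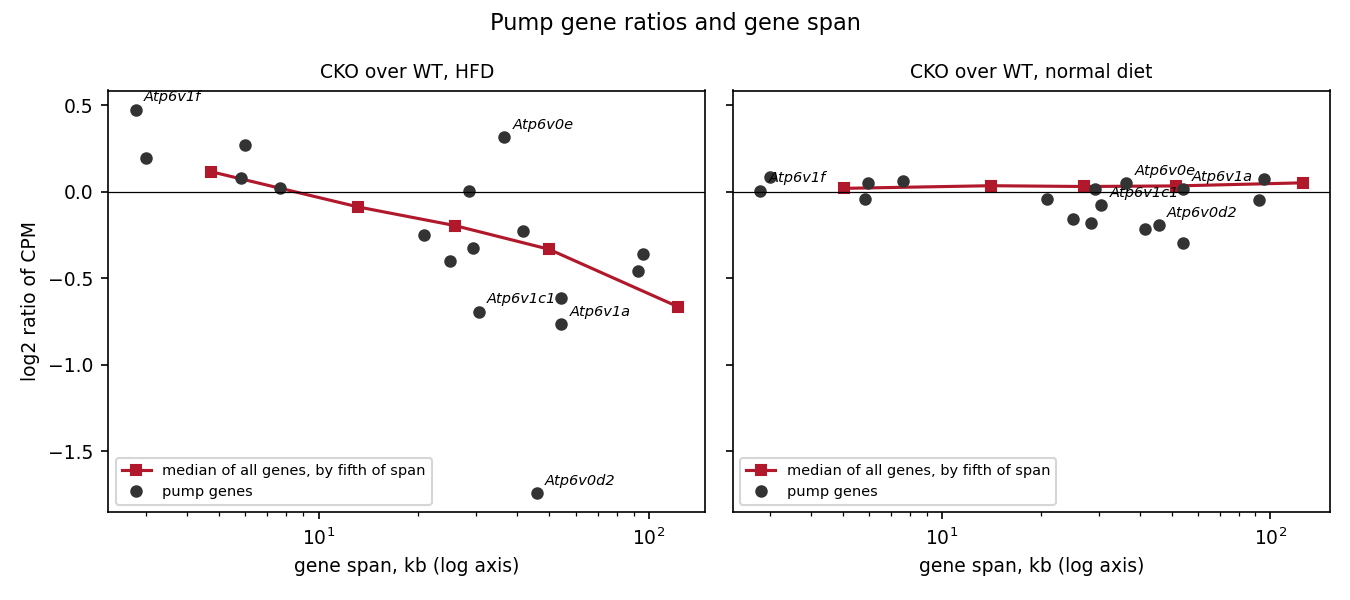
Log2 ratio of CPM between CKO and WT against gene span in kb (log axis), on HFD (left) and the normal diet (right); points are pump genes and squares the median of all genes in each of 5 groups by span. On HFD the squares run from 0.12 down to -0.66, with Atp6v0d2 at -1.74 below them and Atp6v0e at 0.31 above; on the normal diet the squares lie between 0.02 and 0.05.

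The Atp6v0d2 ratio between CKO and WT on HFD depended on how cells were matched for depth, a check chosen after the data had been seen. In cells of like UMI count, WT HFD had 51.7 CPM and CKO HFD 46.5 CPM at 8000 to 16000 UMIs (2422 and 1068 cells), a ratio of 0.900 (0.813 to 0.994). At 4000 to 8000 UMIs the levels were 25.5 and 29.6 CPM (271 and 3038 cells), a ratio of 1.16 (0.852 to 1.62). From 16000 UMIs on they were 144 and 49.3 CPM (1850 and 139 cells), a ratio of 0.342 (0.286 to 0.405). The 1850 deepest cells of WT HFD held 79.3% of that library's Atp6v0d2 UMIs. Over all cells of 2000 to 8000 UMIs (311 and 6448 cells) the ratio was 0.888 (0.664 to 1.21), so at equal UMI counts below 16000 the difference did not pass the fold, except for 0.321 (0.134 to 1.00) at 2000 to 4000 UMIs, where WT HFD had 40 cells.

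Matching by rank gave another answer, since a cell of 8000 UMIs was shallow in WT HFD and deep in the other libraries. When the cells of each library were cut into 4 equal groups by their UMIs, also after the data had been seen, Atp6v0d2 stood at 32.4, 51.6, 91.8 and 162 CPM from the shallowest to the deepest group in WT HFD and at 11.6, 14.5, 26.5 and 45.7 CPM in CKO HFD. The level was higher in deeper cells of both libraries. The ratios within these groups were 0.359, 0.282, 0.289 and 0.283, each past the fold. Whether Atp6v0d2 goes with the size of a cell or with the depth of its library cannot be told apart with 1 library per group.

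The diet difference stayed past the fold over all cells of like UMI count. At 2000 to 8000 UMIs Atp6v0d2 stood at 26.6, 23.6, 8.56 and 7.93 CPM, and HFD over normal diet was 3.11 (2.13 to 4.50) in WT and 2.98 (2.37 to 3.77) in CKO. From 4000 UMIs on, the HFD level was over 1.5 times the normal-diet level in both genotypes in each of the 3 depth ranges, with ratios of 2.58 to 13.8. Matched by rank within the library, the WT ratios were 5.86, 9.25, 7.85 and 11.6 from the shallowest to the deepest group. In CKO they were 1.36 (0.797 to 2.42), 1.78, 3.69 and 3.82, so the shallowest group was under the fold. Within Trem2 cells (defined below) of 2000 to 8000 UMIs, HFD over normal diet was 1.97 (1.25 to 3.30) in CKO. In WT it was 1.01 (0.533 to 1.85), and HFD had 64 such cells there. Atp6v0c kept its direction in the range of 2000 to 8000 UMIs, but in WT its ratio was 1.38, under the fold.

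Markers of lipid-associated macrophages, the cells that gather around dying fat cells, had the order of Atp6v0d2 in part. Their 7 markers, of which 7, 7, 7 and 6 reached 10 CPM, summed to 3583, 2321, 1989 and 1707 CPM; their part in the Atp6v0d2 difference over all cells was not tested. Trem2, a lipid receptor, stood at 374, 239, 47.3 and 44.3 CPM and Gpnmb, a glycoprotein of lysosome-rich cells, at 184, 69.2, 12.4 and 8.04 CPM. Lpl, the lipoprotein lipase, gave the largest part of the sum and did not follow that order, at 1812, 1058, 1473 and 1209 CPM. Osteoclast markers did not follow as a list: of 5, Acp5 (36.5, 22.5, 9.18 and 7.95 CPM) and Ctsk (38.7, 18.2, 7.85 and 4.36 CPM) had the order of Atp6v0d2, Dcstamp (26.4, 18.4, 91.0 and 65.7 CPM) did not, and Calcr, a defining marker, had 0 UMIs in every library. In pooled cells, fewer cells of a type and less RNA per cell cannot be told apart, so single cells were split next.

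Each cell with at least 2000 UMIs was thinned at random to 2000 UMIs and put in a class by whether a Trem2 or a Lyve1 UMI remained; Lyve1 marks resident perivascular macrophages. The class of Trem2 only held 1524, 1683, 198 and 180 cells (33.3%, 22.0%, 6.53% and 5.17%), and that of Lyve1 only held 211, 941, 380 and 669 cells (4.60%, 12.3%, 12.5% and 19.2%). The profile of a class used all UMIs of its cells. Fibroblast markers summed to 232, 34.7, 31.2 and 61.4 CPM in the Lyve1 class and to 11.2, 30.5, 22.3 and 21.6 CPM in the Trem2 class. The part of this in ratios that use the Lyve1 class was not tested. Thinned to equal depth, 10.7% of WT (9.79% to 11.6%) and 3.67% of CKO cells (3.26% to 4.12%) on HFD had an Atp6v0d2 UMI. Among normal-diet cells 1.52% of WT (1.11% to 2.02%) and 1.38% of CKO cells (1.02% to 1.82%) had one. Without thinning the shares were 24.6%, 7.46%, 3.40% and 2.91%. Thinning does not match the depth that cells had before it. In cells of 8000 to 16000 UMIs the thinned shares were 6.52% in WT HFD and 6.55% in CKO HFD. From 16000 UMIs on they were 17.0% and 6.47%, and at 4000 to 8000 UMIs 5.17% and 4.21%. At 2000 to 4000 UMIs, where WT HFD had 40 cells, they were 7.5% and 2.17%. Cells gated by fibroblast markers, which should lack the gene, had 0 of 47 in WT HFD and 0 of 55 in CKO HFD, which allows shares of up to 6.38% and 5.45%; their median depths before thinning were 14866 and 3486 UMIs, and unthinned 1.82% of the 55 in WT HFD and 0% of the 66 in CKO HFD had one. The median depths of all cells were 14492.5 and 3923 UMIs. The share in CKO HFD and in both normal-diet libraries lies under the limit that these few fibroblast cells allow.

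Atp6v0d2 was concentrated in Trem2 cells. It stood at 222, 85.0, 69.8 and 54.7 CPM in Trem2 cells. In Lyve1 cells it stood at 30.6, 12.7, 5.14 and 7.61 CPM, and in cells with neither marker at 37.4, 13.4, 7.42 and 7.25 CPM. In each library the Trem2 cells were the highest class and their interval overlapped neither that of Lyve1 cells nor that of cells with neither marker. Trem2 over Lyve1 cells gave ratios of 7.26 (5.99 to 8.89), 6.70 (5.11 to 8.94), 13.6 (7.43 to 27.3) and 7.20 (4.61 to 11.5). Another random thinning gave 11.1, 6.57, 17.0 and 14.6, and thinning to 1000 UMIs gave 11.4, 12.0, 11.7 and 8.21. The size of the ratio thus moved by over 1.5 times in both HFD libraries and in CKO on the normal diet, while each stayed past the fold. Trem2 cells were deeper than Lyve1 cells, with median UMIs of 15698.5 against 13573 in WT HFD and 5205 against 3600 in CKO HFD, and the part of depth was not tested. Scrublet scored 9.63% of Trem2 and 6.91% of Lyve1 cells in CKO HFD as doublets; with scored doublets removed the 4 ratios were 11.2, 10.5, 14.4 and 7.13.

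Atp6v0d2 thus took 58.5% of d-subunit UMIs in the Trem2 cells of WT HFD, more than Atp6v0d1. In the other 3 libraries the share was 39.0%, 27.8% and 28.3%. In Lyve1 cells it was 14.2%, 7.60%, 2.48% and 3.95%. By depth, Atp6v0d2 was above Atp6v0d1 in WT HFD Trem2 cells only from 16000 UMIs on, at 280 against 164 CPM. At 8000 to 16000 UMIs it stood at 119 against 145 CPM, and at 4000 to 8000 UMIs at 41.5 against 160 CPM. At 2000 to 4000 UMIs (10 cells) it stood at 139 against 174 CPM. In CKO HFD Trem2 cells of 8000 to 16000 UMIs it stood at 112 against 130 CPM. Atp6v0d1 was slightly lower in Trem2 than in Lyve1 cells in every library, at 158 against 185 CPM in WT HFD and 133 against 154 CPM in CKO HFD, for example.

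**Figure D4:**
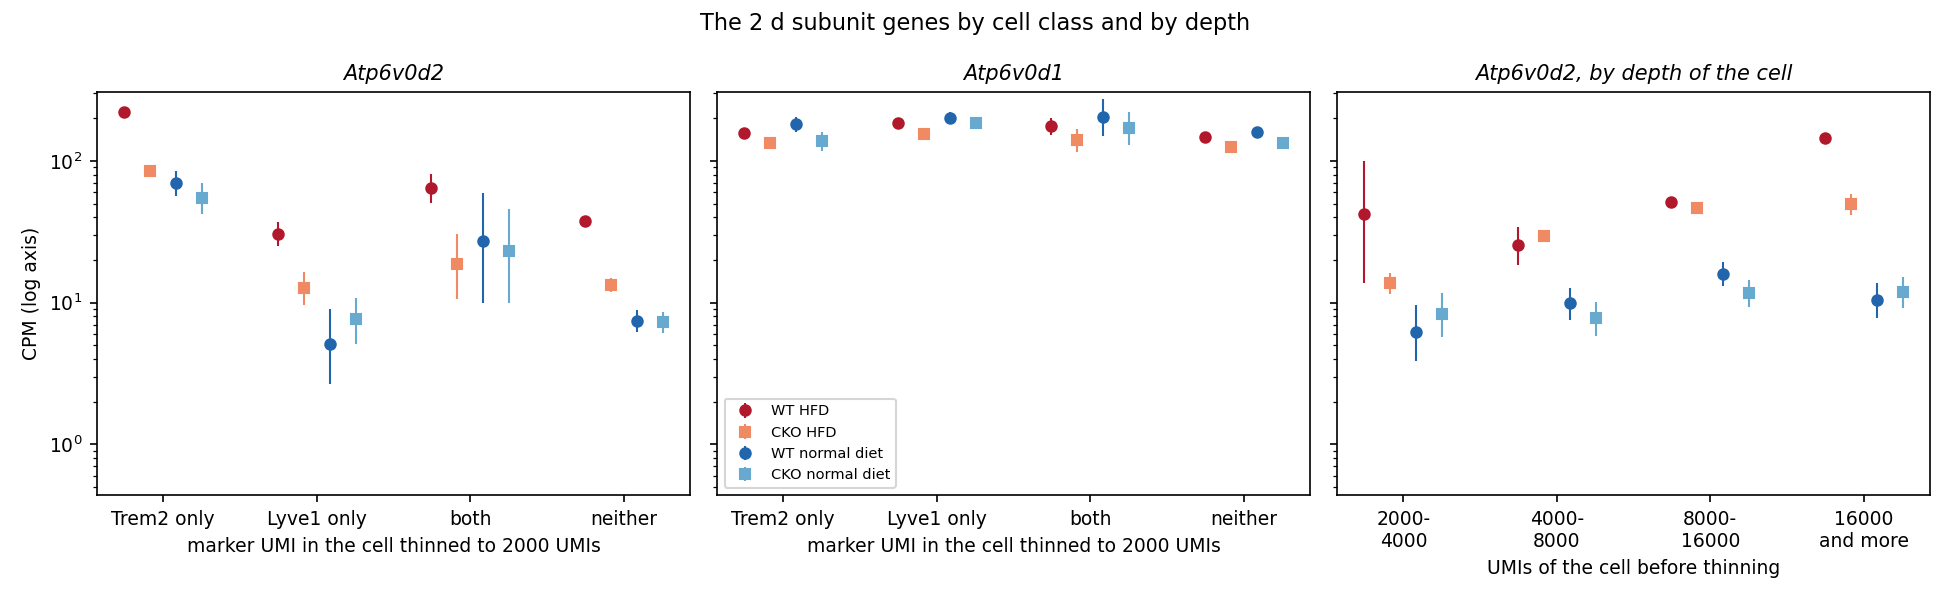
CPM of Atp6v0d2 (left) and Atp6v0d1 (middle) by cell class, and of Atp6v0d2 by UMIs of the cell (right), for each library on a common log axis with 95% counting intervals. Atp6v0d2 is highest in Trem2 cells (54.7 to 222 CPM) while Atp6v0d1 varies little, and in the right panel WT HFD and CKO HFD lie close at 8000 to 16000 UMIs (51.7 and 46.5) and apart from 16000 on (144 and 49.3).

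Cells with more Trem2 UMIs more often held Atp6v0d2. Of thinned WT HFD cells with 0, 1, 2 and 3 or more Trem2 UMIs, 4.80%, 12.0%, 25.8% and 42.1% had an Atp6v0d2 UMI. In CKO HFD the shares were 1.82%, 4.95%, 12.2% and 23.5%. The share was lower in CKO HFD at each Trem2 count, and the 95% intervals did not overlap at any of the 4. On the normal diet the top bins held only 11 and 10 cells, of which 5 each had an Atp6v0d2 UMI. Seen from the other side, 70.6% of WT HFD cells with an Atp6v0d2 UMI also had Trem2, against 30.2% of those without, and in CKO HFD 62.3% against 22.4%. The normal-diet shares were 39.1% against 7.31% in WT and 18.8% against 6.73% in CKO. In CKO on the normal diet, Lyve1 was more frequent than Trem2 in cells with an Atp6v0d2 UMI, at 27.1%, against 20.9% of those without. In the other libraries Lyve1 was less frequent in cells with an Atp6v0d2 UMI than in those without. In CKO normal diet, 4.44% of the Trem2 class (1.94% to 8.57%) and 1.79% of the Lyve1 class (0.930% to 3.11%) had an Atp6v0d2 UMI after thinning. These intervals overlap. On HFD, cells with an Atp6v0d2 UMI had been deeper before thinning, with medians of 18161 against 14266.5 UMIs in WT and 5859 against 4278.5 in CKO. On the normal diet the medians were 7154 against 4900 UMIs in WT, but 4474.5 against 4849.5 in CKO. The bins by Trem2 UMIs were not matched for that depth. Of Trem2 cells of 8000 to 16000 UMIs, 14.3% in WT HFD and 13.8% in CKO HFD had an Atp6v0d2 UMI after thinning. From 16000 UMIs on the shares were 31.0% and 9.80%, and at 4000 to 8000 UMIs 9.26% and 12.0%. At 2000 to 4000 UMIs, where WT HFD had 10 Trem2 cells, they were 20% and 4.74%.

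Other pump genes were also higher in Trem2 cells on HFD, by less. Trem2 over Lyve1 cells gave 4 of 17 pump genes over 1.5 times higher and 0 lower in WT HFD, beside 8.98% and 20.1% of all genes, and 3 higher and 0 lower in CKO HFD, beside 6.36% and 22.6%. Besides Atp6v0d2, these were Atp6v1b2 at 1.96 (278 against 142 CPM) and 1.59 (214 against 135 CPM; 1.49 without thinning), Atp6v0e at 1.67 (386 against 232 CPM) and 1.74 (492 against 283 CPM), and Atp6v1c1 at 1.82 (119 against 65.2 CPM) in WT HFD. Atp6v1c1 in CKO HFD was at 1.39 (1.19 to 1.62), below the fold. On both sides 14 of 17 genes were above the median of all genes. The accessory Atp6ap2 (0.824 and 0.784), Atp6v0d1 (0.853 and 0.862) and Atp6v1h (0.895 and 0.753) had ratios below 1 in both, though the interval of Atp6v1h in WT HFD (0.775 to 1.04) includes 1.

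On the normal diet fewer passed: 2 pump genes were over 1.5 times higher and 0 lower in WT, beside 10.6% and 12.3% of all genes, and 1 higher and 0 lower in CKO, beside 7.28% and 10.8%. Besides Atp6v0d2 this was Atp6v1f in WT, at 1.55 (261 against 168 CPM), and 1.37 without thinning. In WT 12 and in CKO 9 of 17 were above the median of all genes. Whether the diets differ in this was not tested. With TMM scaling the counts in WT HFD and CKO HFD became 8 higher and 0 lower each. Of all genes, 19.6% were higher and 11.6% lower in WT HFD, and 16.9% and 10.2% in CKO HFD. The median of all genes moved from -0.12 to 0.14 in WT HFD.

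**Figure D5:**
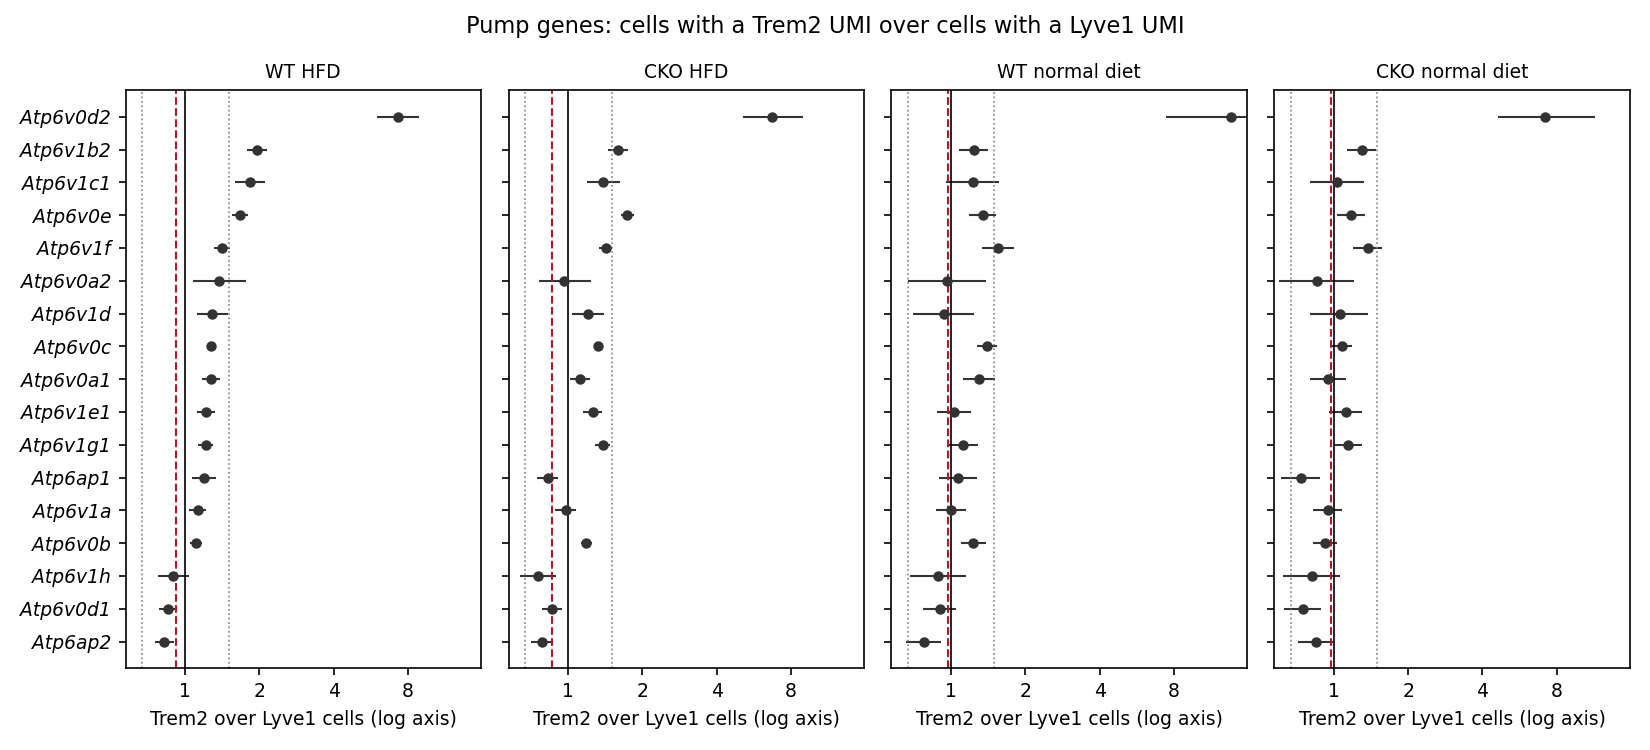
Ratio of CPM in Trem2 cells over Lyve1 cells for each pump gene in each library (log axis), with 95% counting intervals; the dashed line is the median of all genes and the dotted lines the 1.5-fold limits. Atp6v0d2 is the rightmost gene in each panel (6.70 to 13.6), followed by Atp6v1b2 (1.96) in WT HFD and by Atp6v0e (1.74) in CKO HFD.

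Within Trem2 cells the difference between CKO and WT on HFD was present at a like size. There, 0 of 17 pump genes were over 1.5 times higher and 4 lower, beside 5.52% and 22.3% of 7615 genes: Atp6v0d2 at 0.383 (0.357 to 0.412), Atp6v1a at 0.555, Atp6v1c1 at 0.569 and Atp6v0a1 at 0.664. Relative to genes of like span those 4 stood at 0.491, 0.710, 0.670 and 0.850, so only the Atp6v0d2 call held. Another thinning gave 0.670 for Atp6v0a1, just under the fold. In Trem2 cells of 8000 to 16000 UMIs, however, Atp6v0d2 stood at 119 CPM in WT HFD (725 cells) and 112 in CKO HFD (311 cells), a ratio of 0.939 (0.832 to 1.06). From 16000 UMIs on it stood at 280 CPM (735 cells) and 85.0 CPM (51 cells), a ratio of 0.303 (0.242 to 0.376). At 4000 to 8000 UMIs the direction turned, at 41.5 CPM (54 cells) and 81.9 CPM (815 cells), a ratio of 1.97 (1.16 to 3.64). Within Lyve1 cells, 0 were higher and 2 lower, beside 7.27% and 20.7% of 8072 genes: Atp6v0d2 at 0.416 (0.295 to 0.580) and Atp6v1a at 0.638. Another random thinning gave 0.668 for Atp6v0d2 and 0.684 for Atp6v1a in Lyve1 cells, which ends both calls. Relative to genes of like span, Atp6v0d2 stood at 0.506 and Atp6v1a at 0.778 in Lyve1 cells.

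Between CKO and WT on the normal diet, 0 pump genes were higher and 1 lower within Trem2 cells, beside 8.59% and 6.61%: Atp6v0a1 at 0.651 (0.541 to 0.781), which was 0.745 with another thinning and so not past the fold. Within Lyve1 cells 0 of 16 were higher and 0 lower, beside 3.55% and 2.24%; Atp6v0d2 was under 10 CPM in both and was not counted.

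Between HFD and normal diet within Trem2 cells, 2 pump genes were higher and 0 lower in WT, beside 11.6% and 29.1%: Atp6v0d2 at 3.18 (2.59 to 3.94) and Atp6v0c at 1.55. At like UMI counts the Atp6v0d2 ratio in WT was 0.647 (0.316 to 1.26) at 4000 to 8000 UMIs, 1.66 (1.14 to 2.50) at 8000 to 16000 and 2.47 (1.77 to 3.57) from 16000 on; in CKO it was 1.99 (1.15 to 3.78), 1.22 (0.867 to 1.77) and 2.20 (1.17 to 4.57). In CKO 5 were higher and 4 lower, beside 12.9% and 48.3%. The higher ones were Atp6v0c at 2.01, Atp6v1f at 1.85, Atp6v0e at 1.82, Atp6v0b at 1.56 and Atp6v0d2 at 1.55 (1.21 to 2.03); the lower ones were Atp6v1a at 0.571, Atp6v0a2 at 0.608, Atp6v1h at 0.612 and Atp6ap2 at 0.633. Relative to genes of like span those 4 stood at 0.999, 1.58, 1.59 and 0.882, and with TMM scaling at 0.868, 0.924, 0.930 and 0.961, so each lower call ended and those on Atp6v0a2 and Atp6v1h turned with span. Of the higher ones, Atp6v0b (1.25) and Atp6v1f (1.48) were under the fold on the span scale, and Atp6v0b (1.36) and Atp6v0e (1.47) with another thinning. The Atp6v0d2 value in CKO is not stable: another thinning gave 0.974, as the normal-diet class had 66 Atp6v0d2 UMIs in 180 cells.

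Within Lyve1 cells, HFD over normal diet in WT gave 2 higher and 2 lower, beside 14.5% and 22.0%: Atp6v0d2 at 5.95 (3.27 to 11.9) and Atp6v0c at 1.70, and Atp6v0a2 at 0.556 and Atp6v1b2 at 0.619. Atp6v0d2 there was 3.74 with another thinning and 2.57 with thinning to 1000 UMIs. In CKO there were 3 higher and 3 lower, beside 10.5% and 36.6%: Atp6v1f at 1.78, Atp6v0d2 at 1.67 and Atp6v0c at 1.65, and Atp6v0a2 at 0.540, Atp6v1a at 0.551 and Atp6v1h at 0.665. Relative to genes of like span these lower ones stood at 1.07, 0.812 and 1.32, and with TMM scaling at 0.683, 0.698 and 0.841, so each call ended, and Atp6v0a2 and Atp6v1h turned with span. Atp6v0c was past the fold upward with HFD in both genotypes and classes by CPM. Relative to genes of like span it was past it only in CKO Trem2 cells (1.61), against 1.38 in WT Trem2 cells and 1.33 in CKO Lyve1 cells, and it was just under 1.5 in WT Lyve1 cells.

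Among Trem2 cells, those with an Atp6v0d2 UMI after thinning were compared with those without, leaving out Atp6v0d2. On HFD, 4 of 16 pump genes were over 1.5 times higher and 0 lower in WT, beside 3.67% and 9.93% of all genes, and 5 higher and 0 lower in CKO, beside 6.15% and 12.5%. All 16 lay above the median of all genes in both libraries. Atp6v0a1 was past the fold in both, at 316 against 204 CPM in WT HFD (1.55, 1.47 to 1.64) and at 283 against 137 CPM in CKO HFD (2.06, 1.83 to 2.33). So were Atp6v1a (1.52 and 1.78) and Atp6v1b2 (1.59 and 1.67). Atp6v1c1 passed in WT HFD (1.52), and Atp6v0a2 (1.66) and Atp6v1h (1.58) passed in CKO HFD. Atp6v0d1 was level, at 0.986 (0.920 to 1.06) and 1.03 (0.876 to 1.22). Another thinning left only Atp6v1b2 (1.61) past the fold in WT HFD. In CKO HFD it put Atp6v0a2 under the fold (1.30) and Atp6v1c1 past it (1.65). The part of cell depth before thinning was not tested. In normal-diet libraries only 18 WT and 8 CKO cells had an Atp6v0d2 UMI; 6 of 16 pump genes were higher and 0 lower in WT, beside 20.0% and 32.8%, and 5 higher and 0 lower in CKO, beside 25.7% and 34.5%.

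Likeness was measured over 16 profiles, 4 libraries by 4 classes, which share libraries within a row of 4. Among 4578 genes, those whose log2(CPM + 1) was most like that of Atp6v0d2 were Pld3, a lysosomal nuclease (Pearson r = 0.942), Lipa, the lysosomal acid lipase (0.925), Akr1a1, an aldehyde reductase (0.925), Syngr1, a vesicle protein (0.898), and Slc37a2, a sugar-phosphate transporter of macrophages (0.896). Of the pump genes the most like it was Atp6v1c1 (0.697), followed by Atp6v0c (0.629), and Atp6v0d1 had -0.094. Trem2, which defined the classes, had 0.893.

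Of 30 related genes listed for the pump's assembly, the lysosomal membrane and its regulators, 29 were measured at 10 CPM or more in CKO or WT on HFD. Between them 2 were over 1.5 times higher and 6 lower, beside 5.38% and 20.7% of all genes, and their median of -0.19 lay near that of all genes. Both counts are near the background shares, so they are no result about the list. The higher ones were Lamtor2 (222, 346, 167 and 181 CPM, a ratio of 1.56) and Lamtor4 (1.53), parts of the Ragulator that docks mTORC1 on the lysosome. The lower ones were Mitf (220, 75.8, 199 and 195 CPM, a ratio of 0.345), a factor of the TFEB family, Dmxl1 (0.536), Wdr7 (0.573), Dmxl2 (0.655), which help V1 join V0, Oxr1 (0.577), which loosens it, and the amino acid sensor Slc38a9 (0.605). In this comparison the median log2 ratio of all genes fell with span, to -0.66 in the longest group. The related genes were not set against genes of like span.

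On the normal diet 0 of 28 related genes were past the fold in either direction between genotypes. Between HFD and normal diet in WT, 4 of 29 were higher and 4 lower, beside 13.2% and 24.6% of all genes. Rnasek, a small partner of V0, stood at 192, 219, 103 and 104 CPM, with ratios of 1.87 in WT and 2.11 in CKO. Lamtor5 stood at 118, 130, 55.4 and 58.2 CPM, with ratios of 2.13 and 2.23. In CKO 3 of 28 were higher and 7 lower, beside 11.8% and 42.6% of all genes. Tcirg1 was 2.14 times higher in Trem2 than in Lyve1 cells in WT on both diets, and 1.33 and 1.41 times in CKO.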

How the data were processed

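The authors deposited raw UMI counts per gene and cell, from Cell Ranger 7.0.0 per the file headers, on GRCm38 per the submitters' processing notes. The sources used here do not say if reads in introns were counted. Gene symbols and barcodes came from the deposited feature and barcode lists. Cells needed 500 UMIs, 300 genes and no more than 10% mitochondrial UMIs to be kept, and doublets were removed only in an alternative. UMIs were summed per library or class and divided by the total (CPM). Levels carry exact Poisson, ratios exact conditional binomial and shares exact Clopper-Pearson 95% intervals; with 1 library per group no p-value is given. A gene counted in a comparison had at least 10 CPM on either side. Named genes are all members past 1.5-fold and the 5 most like Atp6v0d2. The members and lists were chosen with earlier results of these data known. Gene positions are from GENCODE M21, in which 99.6% of identifiers were found. The code was tested on simulated data. Alternatives used edgeR 4.0.16 (TMM), DESeq2 1.42.0 (size factors) and Scrublet in scanpy 1.11.5.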

Additional observations from a re-analysis of the deposited data

Results flagged for a closer look

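Atp6v1a, the catalytic A subunit, differed in opposite ways between diets in the genotypes. HFD over normal diet was 1.08 in WT and 0.631 in CKO, so that the only WT library on HFD was above its normal-diet partner and the only CKO library below it. The difference between these ratios was not tested, since each group is 1 library. Relative to genes of like span the ratios were 1.34 and 1.01.

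Atp6v1g2, the G subunit of neurons, gave a low signal outside the genes compared. It stood at 2.10 (WT) and 1.57 CPM (CKO) on HFD and at 1.97 (WT) and 2.49 CPM (CKO) on the normal diet, above the limit that a count of 0 allows in each.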

How the results depend on the processing

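No paired analysis was possible because each group has 1 library, and for the same reason no library could be left out. Over the alternatives other than span within classes, of 306 alternative values of 60 ratios past the fold, 302 kept their direction and 249 also stayed past it. The ratios that turned in the tally were Atp6v0d2 for HFD over normal diet in CKO Trem2 cells (0.974 with another thinning) and, relative to genes of like span, Atp6v0a2 (1.11), Atp6v1a (1.01) and Atp6v1h (1.42) for HFD over normal diet in CKO. Within classes the span scale also turned Atp6v0a2 and Atp6v1h for the diet in CKO, at 1.58 and 1.59 in Trem2 cells and at 1.07 and 1.32 in Lyve1 cells.

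Counts of pump genes past the fold that moved by over 1.5 times are given as higher and lower. The share of all genes past the fold in the same setting is given with them, unless it stands above. With TMM scaling they were 1 and 1 for CKO over WT on HFD, 6 and 0 for HFD over normal diet in WT and 7 and 0 in CKO. Within Trem2 cells TMM gave 1 higher for CKO over WT on HFD, beside 10.6% of all genes. For the diet it gave 8 higher in WT, beside 24.6%, and 8 and 0 in CKO, beside 30.5% and 22.0%. Within Lyve1 cells TMM gave 2 and 1 for CKO over WT on HFD, beside 12.7% and 12.4%. For the diet it gave 1 lower in WT, beside 15.1%, and 5 and 0 in CKO, beside 21.5% and 19.3%. Trem2 over Lyve1 cells gave 8 higher in both HFD libraries. With DESeq2 size factors the counts over all cells were 1 and 1, 5 and 0, and 6 and 1. Beside them stood 10.4% and 10.1%, 20.5% and 15.2%, and 25.7% and 21.9% of all genes. Relative to genes of like span the counts were 1 and 1, 4 and 0, and 5 and 0. Beside these stood 7.29% and 5.86%, 15.7% and 16.2%, and 15.7% and 17.0% of all genes. In cells of 2000 to 8000 UMIs, chosen after seeing the data, the counts for CKO over WT on HFD were 2 and 1, beside 10.6% and 32.9%. For the diet they were 1 and 0 in WT, beside 11.1% and 21.8%, and 5 higher in CKO, beside 14.0%. Atp6v0a2 in WT dropped out, leaving 0 lower, with a filter of 50 CPM, with the mean over cells and with totals without mitochondrial genes and Gm42418. Beside these stood 28.0%, 33.1% and 22.5% of all genes lower.

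Another thinning left 2 higher for the diet in CKO Trem2 cells, beside 12.6% of all genes. It left 0 lower for CKO over WT in HFD Lyve1 cells (beside 19.4%) and in normal-diet Trem2 cells (6.06%). In WT HFD cells with an Atp6v0d2 UMI it left 1 higher (3.12%). Thinning to 1000 UMIs gave, for the diet, 3 higher in CKO Trem2 cells (beside 13.3% of all genes), 1 lower in WT Trem2 cells (30.6%) and 6 lower in CKO Lyve1 cells (37.0%). It gave 0 lower for CKO over WT in normal-diet Trem2 cells (9.13%). For Trem2 over Lyve1 cells in CKO normal diet it gave 2 higher (10.9%). Without thinning WT normal diet had 1 higher for Trem2 over Lyve1 cells (6.21%). Cells with an Atp6v0d2 UMI at 1000 UMIs were 6.28%, 2.08%, 0.768% and 0.661%. Its share of d-subunit UMIs as a mean over cells was 35.3%, 14.8%, 4.49% and 5.11%, in the same library order. The cause of these moves was not tested, except that TMM and size factors shift all genes together. Precision is limited most on the normal diet, where over all thinned cells of a library 10 cells held 35.7% (WT) and 30.9% (CKO) of thinned Atp6v0d2 UMIs.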
